A study of Mus musculus with 8 samples.

Results

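The TNF superfamily ligands and receptors described here are 10 genes, the ligands Tnf, Lta, Tnfsf9, Tnfsf10, Tnfsf13b and Tnfsf15 and the receptors Tnfrsf1a, Tnfrsf1b, Tnfrsf9 and Fas. They were followed in mouse peritoneal macrophages with and without the proprotein convertase FURIN, before and after lipopolysaccharide (LPS), the outer membrane component of Gram-negative bacteria that triggers Toll-like receptor 4. A gene was represented by the probe, among those whose transcript accession belongs to it, with the highest mean intensity over all arrays. All 10 genes had such a probe and all 10 passed the filter on dim probes, out of 37018 genes and transcripts on the array, of which 36947 passed. In the mouse genome, Tnf, Lta and Tnfsf9 lie on chromosome 17, Tnfrsf1b, Tnfrsf9 and Tnfsf15 on chromosome 4, and Tnfrsf1a, Tnfsf10, Tnfsf13b and Fas on chromosomes 6, 3, 8 and 19.

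The groups were WT and FURIN KO peritoneal macrophages on the C57BL/6 background, left unstimulated or given LPS for 1, 4 or 24 h, with 2 biological replicates of each. The KO cells came from LysMCre-fur fl/fl mice, in which Cre recombinase under the lysozyme M (Lyz2) promoter deletes the floxed Furin gene in myeloid cells such as macrophages and neutrophils, and the WT cells from littermates. Peritoneal cells were not sorted but were cultured, freed of non-adherent cells by washing and then stimulated. Each of the 8 2-colour arrays carried the KO and WT RNA of 1 time and 1 replicate, with KO in the red dye Cy5 in replicate 1 and in the green dye Cy3 in replicate 2, so that the replicate number and the dye orientation cannot be told apart. Values are normalized log2 intensities, which can be compared between samples for 1 probe but not between probes, and whether a replicate was 1 mouse or a pool was not given in the sources used here.

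TNF superfamily ligands are trimeric proteins, most of them made as transmembrane molecules that act on neighbouring cells or are cut from the surface, and their receptors recruit TRAF adaptors or, where they carry a death domain, adaptors such as TRADD and FADD. Activated macrophages are the classical source of TNF, which the protease ADAM17 (TACE) sheds and which acts through TNFR1 (Tnfrsf1a) and TNFR2 (Tnfrsf1b) to switch on NF-kB or, when survival signals fail, cell death. Lymphotoxin alpha (Lta) uses the same receptors, 4-1BB ligand (Tnfsf9) and its receptor 4-1BB (Tnfrsf9) co-stimulate T cells, TRAIL (Tnfsf10) and Fas carry death signals, BAFF (Tnfsf13b) keeps B cells alive and TL1A (Tnfsf15) acts on lymphocytes through DR3.

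The genome sequence just before the start site was taken from RefSeq (GRCm38.p6) for 9 of the 10 genes, in 11 entries, and that of Tnfsf9 was not analysed here. The 250 bases before each start were searched on both strands for a 10-letter kappa B consensus, the element bound by NF-kB, for the core of the interferon response element, which is GAAA, any 2 bases and GAAA again, and for the AP-1 element TGANTCA. A kappa B match stood in 1 of the 11 entries, that of a start of Tnfrsf9, against 3.9% of the 32841 entries of all genes, and it consisted of a pair of overlapping matches. The interferon response core stood in 2 entries, of Tnfrsf1b and Tnfsf13b, against 2.98% of all entries, and TGANTCA in 3, of Tnfrsf9, Tnfsf13b and Fas, against 6.75%. Such a match is a string of letters and not a measured binding site, and its absence says only that these letters were not in the window. Shown 5′ to 3′ on the strand of the gene are the windows of Tnf, the founding ligand, and of the inducible receptors Tnfrsf1b and Tnfrsf9, with the matches in capitals. In Tnfrsf1b the capitals are the core as it reads on the opposite strand. They cover chr17:35202008-35202257 on the minus strand, chr4:145246871-145247120 on the minus strand and chr4:150927749-150927998 on the plus strand.
Tnf: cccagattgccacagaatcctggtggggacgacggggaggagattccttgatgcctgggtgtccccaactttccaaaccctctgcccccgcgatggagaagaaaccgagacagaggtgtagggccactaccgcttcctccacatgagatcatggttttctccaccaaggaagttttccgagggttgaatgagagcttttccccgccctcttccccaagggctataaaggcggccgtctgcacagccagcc
Tnfrsf1b: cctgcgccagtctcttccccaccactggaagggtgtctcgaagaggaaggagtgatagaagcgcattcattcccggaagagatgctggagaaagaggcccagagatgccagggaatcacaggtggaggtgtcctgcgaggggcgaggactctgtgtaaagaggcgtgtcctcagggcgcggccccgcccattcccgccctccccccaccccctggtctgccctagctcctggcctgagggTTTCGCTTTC
Tnfrsf9: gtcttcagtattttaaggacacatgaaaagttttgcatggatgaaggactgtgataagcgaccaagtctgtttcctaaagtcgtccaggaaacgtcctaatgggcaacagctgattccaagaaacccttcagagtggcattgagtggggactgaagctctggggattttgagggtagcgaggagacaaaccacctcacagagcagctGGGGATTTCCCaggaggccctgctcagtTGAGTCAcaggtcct

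The arrays had between 43.8% and 51.3% of gene spots well above background in a channel. Furin was lower in KO than in WT on both arrays of untreated cells, of 1 h and of 24 h (log2 KO/WT -0.72, -0.56 and -0.64). At 4 h it was not, with 12.02 in KO against 12.02 in WT in replicate 1 and 11.97 against 11.65 in replicate 2, so the 4 h cells, and any series of values that includes them, are called the cells labelled KO, and KO/WT at 4 h or over the 4 times stands for cells so labelled. On the mean over the 4 times Furin was -0.44 (adjusted p = 0.022 in limma). At single times it did not pass 0.05 in that fit (adjusted p = 0.161 untreated, 0.462 at 1 h and 0.184 at 24 h). Whether the Furin probe lies in the deleted part of the gene was not given. Lyz2, the gene that holds the Cre, was lower in KO on both arrays at all 4 times (log2 KO/WT -0.90, -0.98, -1.09 and -1.73), including the 4 h cells. In limma it passed 0.05 at 24 h alone (adjusted p = 0.105, 0.206, 0.0562 and 0.00631). With a term for the replicate in the fit, Lyz2 passed at all 4 times and Furin untreated, at 1 h and at 24 h. The 7 of 8 macrophage markers that could be tested were all well above background in all 16 channels, and so were 7 of 8 markers of large peritoneal macrophages and all 8 of B cells. Of the T and NK cell list 8 of 10 were, with Ncr1 and Klrb1c above it in none, and of the mast cell list 6 of 7, with Ms4a2 above it in none. Dendritic cell markers reached it throughout for 3 of 5 (Xcr1 in no channel), neutrophil markers for 2 of 5 (S100a9 and Cxcr2 in none) and mesothelial or fibroblast markers for 2 of 8 (Pdgfra in none). Beside macrophage transcripts the RNA thus held those of lymphocytes and mast cells, and fewer cells of a type and less RNA per cell cannot be told apart.

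LPS moved 9 of the 10 genes in WT cells by 4 h, and 3 ligands stood 87.1-fold (Tnfsf15), 131-fold (Tnf) and 183-fold (Tnfsf9) above untreated at their peak. On the scanner software's processed signals the Tnfsf15 change was larger, 7.93 in place of 6.44 on the log2 scale, and exceeded that of Tnf (7.01 in place of 7.04). At 4 h, 8 of the 10 genes were higher and 1, Tnfsf13b, was lower in WT cells at an adjusted p below 0.05 in limma, against 34.7% of all genes and transcripts in either direction, and the same held in the cells labelled KO, against 36%. At 1 h, 5 were higher and 0 lower in WT, with 8.5% called among all, and 4 were higher and 1 lower in KO, with 7.53%. At 24 h, 6 were higher and 1 lower in WT, with 30.4%, and 7 higher and 1 lower in KO, with 28.6%. The median change of the 10 genes in WT was 0.58, 2.20 and 0.77 on the log2 scale at the 3 times, where that of all features was -0.0187, -0.000626 and -0.0147. Marker lists of cell types moved at the same times. At 4 h, 3 of 5 dendritic cell markers were higher and 1 lower in WT (median 0.69), 5 of 8 markers of large peritoneal macrophages were lower (-0.79), 4 of 7 macrophage markers were lower and 1 higher (-0.85), and 3 of 8 B cell markers were lower and 2 higher (-0.34). Of T and NK cell markers 1 of 10 was lower, of neutrophil markers 1 of 5 and of mesothelial or fibroblast markers 2 of 8 were higher, and of mast cell markers 0 of 7 were called. In the cells labelled KO the medians at 4 h were 0.64, -0.79, -0.98 and -0.88 for the first 4 of these lists. At 24 h in WT, 7 of 8 markers of large peritoneal macrophages (median -3.53), 5 of 7 of mast cells (-1.61), 4 of 7 of macrophages (-1.33), 4 of 10 of T and NK cells (-0.55), 2 of 8 of B cells (-0.37) and 2 of 5 of dendritic cells (-0.19) were lower, while 2 macrophage, 2 neutrophil, 1 dendritic cell and 1 mesothelial or fibroblast marker were higher. At 1 h in WT, 1 macrophage, 1 neutrophil and 1 dendritic cell marker were higher and 1 of large peritoneal macrophages was lower. The part of these cells in the changes of the 10 genes was not tested. All LPS comparisons of a genotype share its untreated samples, and no array carried more than 1 time, so they are comparisons between arrays.

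Tnf rose within 1 h, stayed at that level at 4 h and was still raised at 24 h. In WT cells its log2 intensity was 10.81 and 10.81 untreated, 17.72 and 17.51 after 1 h, 17.78 and 17.92 after 4 h and 13.18 and 13.91 after 24 h in replicates 1 and 2, and in the cells labelled KO it was 11.00 and 11.32 untreated, 17.53 and 17.59 after 1 h, 17.92 and 17.10 after 4 h and 13.49 and 13.05 after 24 h. Every stimulated value lay above every untreated one. The change at 1 h was 6.81 (SE 0.26, adjusted p = 1.95e-09) on the log2 scale in WT, a 112-fold rise, and 6.40 (SE 0.26, adjusted p = 4.49e-09) in KO. At 4 h it was 7.04 (SE 0.26, adjusted p = 1.88e-10) in WT and 6.35 (SE 0.26, adjusted p = 4.74e-10) in the cells labelled KO, and at 24 h 2.74 and 2.12, 6.67-fold and 4.34-fold. None of the 10 spots of the Tnf probe was flagged as saturated, but at 1 and 4 h the probe ranked between 1 and 60 counted from the brightest of its channel, where the highest scaled value was 17.90 to 18.17. At 4 h it held rank 1 in replicate 1 of the cells labelled KO and in replicate 2 of WT. Both stood at 17.92, the highest value of their channels, with raw medians of 510175 and 536709. Whether the top of the scale compressed the folds at 1 and 4 h was not tested.

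Tnfsf9 and Tnfsf15 also rose strongly, Tnfsf9 to a peak at 1 h and Tnfsf15 more slowly to a peak at 4 h. Tnfsf9, the ligand of 4-1BB, measured 8.20 and 8.42 untreated, 16.06 and 15.59 after 1 h, 14.41 and 14.34 after 4 h and 10.88 and 10.49 after 24 h in WT. In the cells labelled KO it measured 9.08 and 8.52 untreated, 15.61 and 15.60 after 1 h, 14.12 and 14.31 after 4 h and 10.73 and 10.83 after 24 h. It was highest at 1 h in both replicates of both genotypes, 183-fold above untreated in WT (log2 change 7.51, SE 0.19, adjusted p = 6.64e-11) and 112-fold in KO (6.81, SE 0.19, adjusted p = 2.75e-10), and fell at each later time. By 24 h it was 2.37 above untreated in WT and 1.98 in KO. Tnfsf15, the gene of TL1A, measured 6.71 and 6.78 untreated, 8.40 and 8.40 after 1 h, 13.17 and 13.21 after 4 h and 7.50 and 6.95 after 24 h in WT. The cells labelled KO gave 6.74 and 7.08 untreated, 8.27 and 8.59 after 1 h, 13.17 and 13.21 after 4 h and 7.39 and 7.81 after 24 h. It had risen 3.14-fold at 1 h in WT and then stood 87.1-fold above untreated at 4 h (log2 change 6.44, SE 0.19, adjusted p = 2.11e-11), with 6.28 (SE 0.19, adjusted p = 2.95e-11) in the cells labelled KO. On processed signals the 1 h change was 2.72 in place of 1.65 on the log2 scale in WT and 2.65 in place of 1.52 in KO. At 24 h the difference of 0.48 in WT missed the threshold (adjusted p = 0.0713) and passed it with a replicate term in the fit (adjusted p = 0.0178), while that in KO was 0.69 (SE 0.19, adjusted p = 0.0119). The KO call at 24 h was lost without untreated replicate 1 (log2 0.52, adjusted p = 0.157) and without 24 h replicate 2 (0.48, adjusted p = 0.0531), and the WT change passed without 24 h replicate 2 (0.76, adjusted p = 0.00461) and was 0.21 without 24 h replicate 1 (adjusted p = 0.452). On processed signals the 24 h changes were 0.97 in WT (adjusted p = 0.0774) and 1.496 in KO (adjusted p = 0.0132).

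Tnfsf10, the gene of the death ligand TRAIL, did not pass the threshold at 1 h and rose at 4 h. It measured 6.93 and 7.04 untreated, 6.83 and 6.71 after 1 h, 10.35 and 9.83 after 4 h and 8.90 and 8.33 after 24 h in WT. In the cells labelled KO it measured 7.18 and 7.24 untreated, 7.14 and 7.11 after 1 h, 10.54 and 10.54 after 4 h and 9.45 and 9.59 after 24 h. The 4 h and 24 h values lay above all untreated and 1 h values. The change at 4 h was 3.10 (SE 0.18, adjusted p = 8.79e-09) in WT and 3.33 (SE 0.18, adjusted p = 4.55e-09) in the cells labelled KO, 8.60-fold and 10.0-fold. On processed signals these changes were 4.17 and 4.23. At 24 h it was 1.63 (SE 0.18, adjusted p = 6.94e-06) in WT and 2.31 (SE 0.18, adjusted p = 2.63e-07) in KO, and the WT value was 2.49 on processed signals.

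Lta, whose product shares the receptors of TNF, rose to a peak at 4 h. It measured 6.86 and 7.10 untreated, 7.53 and 8.27 after 1 h, 8.81 and 9.24 after 4 h and 7.15 and 7.41 after 24 h in WT. The values labelled KO were 6.97 and 7.13 untreated, 8.21 and 8.21 after 1 h, 8.97 and 8.98 after 4 h and 7.39 and 7.22 after 24 h. The 4 h values were the highest in both replicates of both genotypes, 4.13-fold above untreated in WT (log2 change 2.04, SE 0.20, adjusted p = 1.76e-06) and 3.80-fold in the cells labelled KO (1.93, SE 0.20, adjusted p = 3.25e-06). At 1 h the change was 0.92 (SE 0.20, adjusted p = 0.0103) in WT, which was lost without untreated replicate 1 (0.80, adjusted p = 0.134) or without 1 h replicate 2 (0.55, adjusted p = 0.154), and 1.16 (SE 0.20, adjusted p = 0.00241) in KO. At 24 h it was 0.30 and 0.25, neither past the threshold. On processed signals the 4 h changes were 3.06 in WT and 2.89 in the cells labelled KO, and those at 1 h 1.57 and 1.93. Lymphocytes also make Lta, and the summed linear intensity of the T and NK cell markers in WT was 15743 and 23999 untreated and 10213 and 13636 at 4 h, while that of the B cell markers was 67026 and 87354 and 37231 and 45106. The T and NK sums in the cells labelled KO were 20928 and 23642 untreated and 11900 and 10709 at 4 h, and the B cell sums 75216 and 108588 and 28856 and 43017. At 4 h, 1 of 10 T and NK cell markers was lower in WT and 2 in the cells labelled KO (medians -0.14 and -0.26), with 0 higher. Of 8 B cell markers 3 were lower and 2 higher in WT, and 5 lower and 2 higher in the cells labelled KO. The part of these cells in the Lta level was not tested.

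Tnfsf13b, the gene of the B cell survival factor BAFF, was the one ligand of the 6 that fell. It measured 9.28 and 8.88 untreated, 9.06 and 8.34 after 1 h, 7.24 and 7.25 after 4 h and 6.44 and 6.72 after 24 h in WT. The values labelled KO were 8.96 and 9.17 untreated, 8.66 and 8.63 after 1 h, 7.41 and 7.44 after 4 h and 6.14 and 6.79 after 24 h. All 4 h and 24 h values lay below all untreated and 1 h values. It fell by 1.84 at 4 h in WT (SE 0.23, adjusted p = 1.61e-05) and by 1.64 in the cells labelled KO (SE 0.23, adjusted p = 4.7e-05) on the log2 scale. At 24 h the probe was not well above background in replicate 1 of either genotype and was in replicate 2, so the differences from untreated, -2.50 in WT and -2.60 in KO, rest on a measured level in 1 of 2 arrays. On processed signals they were -4.41 and -4.99, and those at 4 h were -2.63 and -2.24.

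**Figure D1:**
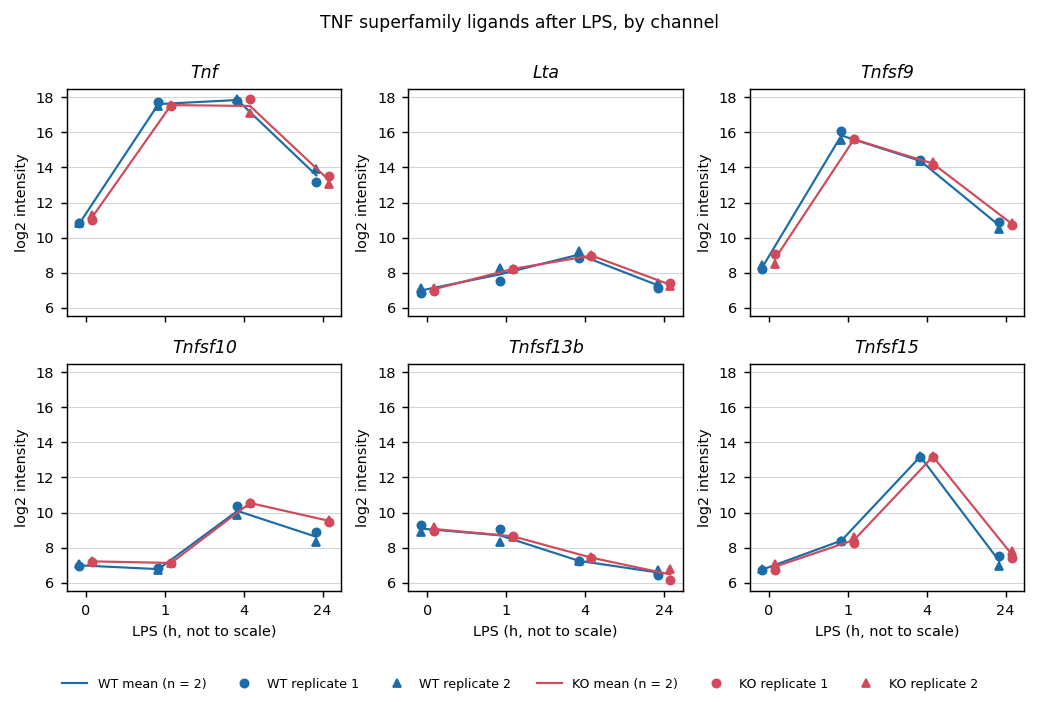
Normalized log2 intensity of the 6 ligands (vertical axes, same range) against hours of LPS (horizontal axes, not to scale), with a point for each channel, circles for replicate 1, triangles for replicate 2, blue for WT and red for KO, and a line through the mean of the 2 replicates. Tnf reached 17.92, Tnfsf9 peaked at 1 h, Tnfsf15, Tnfsf10 and Lta at 4 h, and Tnfsf13b declined.

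Among the receptors, Tnfrsf9 and Tnfrsf1b rose clearly, Fas rose little and Tnfrsf1a hardly moved. Tnfrsf9, the 4-1BB receptor, measured 12.09 and 12.32 untreated, 12.59 and 12.76 after 1 h, 14.59 and 14.52 after 4 h and 15.67 and 15.76 after 24 h in WT. In the cells labelled KO it measured 12.47 and 11.63 untreated, 12.96 and 12.14 after 1 h, 15.11 and 14.26 after 4 h and 16.06 and 15.48 after 24 h. It was the one gene of the 10 that was higher at 24 h than at 4 h by the test. The change was 2.35 (SE 0.33, adjusted p = 4.6e-05) in WT and 2.64 (SE 0.33, adjusted p = 1.62e-05) in the cells labelled KO at 4 h, and 3.51 and 3.72 at 24 h, 11.4-fold and 13.2-fold. At 1 h it was 0.47 in WT and 0.50 in KO, which did not pass the threshold (adjusted p = 0.547 and 0.507) and passed it with a replicate term (adjusted p = 0.0073 and 0.00529). Leaving out 1 array moved the KO value between 0.08 (without untreated replicate 2, adjusted p = 0.96) and 0.92 (without untreated replicate 1, adjusted p = 0.281), with 0.09 without 1 h replicate 1 and 0.91 without 1 h replicate 2, and the WT value between 0.36 and 0.58. The difference at 24 h of a second, dimmer Tnfrsf9 probe, well above background in 6 of 16 channels, was 0.86 in WT and 0.93 in KO, in the same direction and smaller. With the mean of both probes the 24 h change was 2.18 in WT and 2.33 in KO, and the 4 h change 1.38 and 1.63.

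Tnfrsf1b, the gene of TNFR2, measured 11.42 and 11.82 untreated, 12.35 and 12.25 after 1 h, 13.60 and 13.50 after 4 h and 12.39 and 12.94 after 24 h in WT. The cells labelled KO gave 11.86 and 11.48 untreated, 12.13 and 12.02 after 1 h, 13.91 and 13.68 after 4 h and 12.76 and 12.74 after 24 h. All values at 4 and 24 h lay above the untreated ones. It peaked at 4 h, at 1.93 (SE 0.18, adjusted p = 1.27e-06) above untreated in WT and 2.12 (SE 0.18, adjusted p = 5.03e-07) in the cells labelled KO, and stood 2.07-fold and 2.12-fold above untreated at 24 h. At 1 h the change of 0.68 (SE 0.18, adjusted p = 0.0346) in WT was called, but not without untreated replicate 1 (0.48, adjusted p = 0.26), 1 h replicate 1 (0.63, adjusted p = 0.192), 1 h replicate 2 (0.73, adjusted p = 0.134) or either 4 h array (adjusted p = 0.051). That in KO, 0.41, did not pass (adjusted p = 0.263).

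Tnfrsf1a, the gene of TNFR1, the receptor that most cells carry, stayed between 13.30 and 14.04 in all 16 channels, the narrowest range of the 10 genes. In WT it measured 13.74 and 13.75 untreated, 13.56 and 13.40 after 1 h, 13.97 and 13.72 after 4 h and 13.66 and 13.63 after 24 h, and no LPS time differed from untreated by the test. In the cells labelled KO it measured 13.89 and 13.86 untreated, 13.43 and 13.30 after 1 h, 14.04 and 13.77 after 4 h and 13.90 and 13.79 after 24 h, and the 1 h value was lower by the test (-0.51, SE 0.11, adjusted p = 0.0124). That call was lost without untreated replicate 1 (-0.50, adjusted p = 0.116), untreated replicate 2 (-0.52, adjusted p = 0.0743) or 1 h replicate 2 (-0.44, adjusted p = 0.139). A second Tnfrsf1a probe gave -0.47 for the same difference. Fas, the death receptor, measured 11.26 and 11.24 untreated, 11.40 and 11.39 after 1 h, 12.16 and 11.72 after 4 h and 11.49 and 11.80 after 24 h in WT. The values labelled KO were 11.06 and 10.94 untreated, 11.19 and 11.10 after 1 h, 11.94 and 11.90 after 4 h and 11.67 and 11.81 after 24 h. It rose by 0.69 (SE 0.14, adjusted p = 0.001) at 4 h in WT and by 0.92 (SE 0.14, adjusted p = 8.49e-05) in the cells labelled KO. With loess alone the WT rise was 0.46 (adjusted p = 0.0429). At 24 h it was 0.40 (SE 0.14, adjusted p = 0.0394) above untreated in WT and 0.73 (SE 0.14, adjusted p = 0.000823) in KO. The WT call at 24 h was lost without untreated replicate 1 (0.41, adjusted p = 0.134), untreated replicate 2 (0.39, adjusted p = 0.157), 24 h replicate 2 (0.24, adjusted p = 0.366) or either 1 h array (adjusted p = 0.0635).

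**Figure D2:**
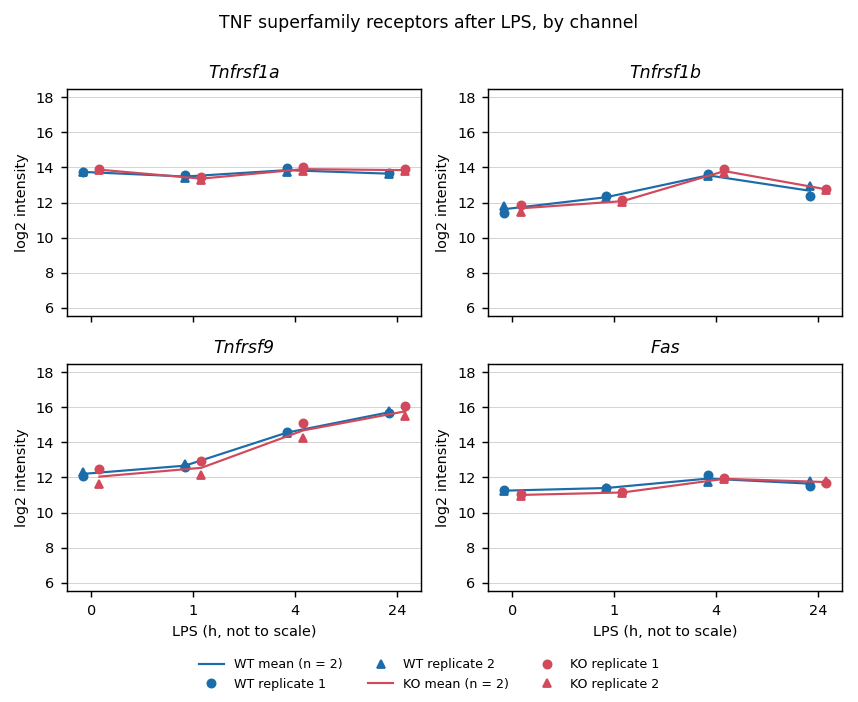
Normalized log2 intensity of the 4 receptors (vertical axes, same range as for the ligands) against hours of LPS (horizontal axes, not to scale), with circles for replicate 1, triangles for replicate 2, blue for WT, red for KO and lines through the mean of the 2 replicates. Tnfrsf9 was highest at 24 h, Tnfrsf1b at 4 h, and Tnfrsf1a stayed between 13.30 and 14.04.

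Comparing one LPS time with the one before it separated an early from a late part of the response. From 1 to 4 h, 7 of the 10 genes rose and 2 fell in WT and in the cells labelled KO, where 29.6% and 31.8% of all features were called. Tnfsf15 rose by 4.80 (SE 0.19, adjusted p = 5.95e-10) and Tnfsf10 by 3.32 (SE 0.18, adjusted p = 9.42e-09) in WT, while Tnfsf9 fell (-1.45, SE 0.19, adjusted p = 4.65e-05), as did Tnfsf13b (-1.45, SE 0.23, adjusted p = 0.000189). Tnf differed by 0.23 in WT and -0.05 in the cells labelled KO, within its error. Of the smaller WT rises, those of Fas (0.54) and Tnfrsf1a (0.36) were lost without 4 h replicate 1, at 0.32 (adjusted p = 0.125) and 0.24 (adjusted p = 0.177), and without 1 h replicate 2, at 0.53 (adjusted p = 0.0505) and 0.29 (adjusted p = 0.202).

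From 4 to 24 h, 1 gene rose and 7 fell in WT and in the cells labelled KO, where 29.7% and 30.7% of all features were called. The falls in WT were -5.96 for Tnfsf15, -4.30 for Tnf, -3.69 for Tnfsf9, -1.75 for Lta and -1.48 for Tnfsf10. In the cells labelled KO they were -5.59, -4.24, -3.44, -1.67 and -1.02, of which that of Tnfsf10 was -0.54 with loess alone and not called (adjusted p = 0.0584). Tnfrsf1b and Tnfsf13b made up the 7. Marker lists moved over the same interval. From 4 to 24 h, 6 of 8 markers of large peritoneal macrophages were lower in WT and in the cells labelled KO (medians -2.71 and -3.43), with 0 and 1 higher, as were 6 of 7 mast cell markers (-1.94 and -1.82), with 0 higher. Of 5 dendritic cell markers 3 were lower and 1 higher in each (medians -2.39 and -1.94), of 7 macrophage markers 4 were lower and 2 higher (-0.73 and -0.73), and of 8 B cell markers 1 was lower and 3 higher (0.10 and 0.39). Of 10 T and NK cell markers 2 were lower in WT, 1 in the cells labelled KO and 1 higher in each (-0.11 and -0.0042). Of 5 neutrophil markers 2 were higher in WT and 1 in the cells labelled KO, with medians of 0.26 and 0.03. Among them S100a8 stood 3.77 and Camp 1.82 above untreated at 24 h in WT on the log2 scale. The neutrophil list median of that change was 0.22, and S100a9 and Cxcr2 were well above background in no channel. Of 8 mesothelial or fibroblast markers 1 was higher and 1 lower in WT and 2 were higher in the cells labelled KO. The part of these cells in the falls and in the rise of Tnfrsf9 was not tested. The rise of Tnfrsf9, 1.16 (SE 0.33, adjusted p = 0.0148) in WT and 1.09 (SE 0.33, adjusted p = 0.0205) in the cells labelled KO, was lost without 24 h replicate 1 (adjusted p = 0.0524 in WT and 0.21 in the cells labelled KO), in WT without 24 h replicate 2 (0.075) and in the latter without 4 h replicate 2 (0.66, adjusted p = 0.245). With the mean of both probes the latter was 0.70 (adjusted p = 0.0157). The fall of Tnfsf13b, -0.66 in WT and -0.96 in the cells labelled KO, was lost without 24 h replicate 1 in both (-0.53 and -0.63, adjusted p = 0.17 and 0.092) and in WT without 4 h replicate 1 (0.143) or 4 h replicate 2 (0.155). It was -1.78 and -2.75 on processed signals, and at 24 h its probe was well above background in replicate 2 alone in either genotype.

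None of the 10 genes passed the threshold between KO and WT at any time in the fit without a replicate term. With that term 1 gene passed, Tnfsf10, at 24 h (adjusted p = 0.00859) and on the mean of the 4 times (adjusted p = 0.00155). In limma on the log2 KO/WT ratios within arrays without the term, 0 of 10 were called untreated, at 1 h, at 4 h, at 24 h and on the mean of the 4 times, where 0%, 0%, 0.00812%, 0.0244% and 0.563% of all features were. In that fit Furin passed at no single time and Lyz2 at 24 h alone. At an unadjusted p below 0.05 there were 1, 0, 1, 2 and 1 of the 10, against 2126, 2018, 1594, 1263 and 3935 of all 36947 features. The methods' t-test, gene by gene on the intensities, gave 1, 2, 1 and 0 at an unadjusted p below 0.05 at the 4 times and 0 after Benjamini-Hochberg adjustment. For the 9 genes other than Tnfsf10, the mean KO/WT difference over the 4 times lay between -0.11 and 0.14 on the log2 scale, and their 95% intervals together ran from -0.40 to 0.37. At single times the intervals were wider, the widest of them reaching -0.97 and 0.98 in the fit without a replicate term.

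For Tnf the log2 KO/WT ratios in replicates 1 and 2 were 0.19 and 0.50 untreated, -0.20 and 0.08 after 1 h, 0.14 and -0.82 after 4 h and 0.30 and -0.86 after 24 h. At 4 and 24 h the replicates went opposite ways and the Cy5 channel was the brighter on all 4 arrays. At 4 h each Cy5 value of Tnf was the highest of its channel. The fitted differences were -0.34 (95% interval -0.97 to 0.29) at 4 h and -0.28 (-0.91 to 0.36) at 24 h. For Tnfrsf9 replicate 1 was above 0 and replicate 2 below it at every time, with Cy5 the brighter on all 8 arrays. Besides Tnfsf10, an unadjusted p below 0.05 was reached by Tnfsf9 in untreated cells and by Tnfrsf1a at 24 h. Tnfsf9 was higher in untreated KO cells on both arrays (0.88 and 0.10), with a fitted difference of 0.49 that did not pass (SE 0.20, adjusted p = 0.805). Tnfrsf1a was 0.25 and 0.16 at 24 h, 0.20 in the fit (SE 0.08, adjusted p = 0.9999). Fas was lower in KO on both arrays untreated (-0.19 and -0.29) and at 1 h (-0.21 and -0.30), also without passing (adjusted p = 0.922 and 0.915).

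Tnfsf10 had the largest mean difference of the 10 genes between the genotypes and was higher in the cells labelled KO on all 8 arrays. The log2 KO/WT ratios of replicates 1 and 2 were 0.26 and 0.20 untreated, 0.31 and 0.40 at 1 h, 0.19 and 0.71 in the cells labelled KO at 4 h and 0.56 and 1.26 at 24 h. The mean over the 4 times was 0.49, 1.40-fold (SE 0.09, 95% interval 0.29 to 0.68), which just missed the threshold (adjusted p = 0.055). With a replicate term in the fit, which takes up what all arrays of a dye orientation share, it passed (adjusted p = 0.00155), where 6.01% of all features passed with that term. At 24 h alone the difference was 0.91, 1.88-fold (SE 0.17, adjusted p = 0.258), or 0.56 without 24 h replicate 2, and with the replicate term the adjusted p was 0.00859, against 0.585% of all features. The mean also passed without 24 h replicate 1 (0.57, adjusted p = 0.0321), and without 24 h replicate 2 it was 0.40 (adjusted p = 0.135). On the scanner software's processed signals it was 0.77 (adjusted p = 0.0895), with 0.48 untreated and 0.95 at 1 h where the fitted differences were 0.23 and 0.35. On the mean over the 4 times, the median log2 KO/WT of the marker lists of other cells was 0.47 for the 7 mast cell markers, of which 0 were called and 5 were called with the replicate term, all 5 higher, 0.15 for the 10 T and NK cell markers (0 called, 2 with the term) and 0.14 for the 8 B cell markers (0 called, 1 with the term). It was 0.06 for the 5 dendritic cell markers, 0.04 for the 8 mesothelial or fibroblast markers and -0.13 for the 5 neutrophil markers, with 0 called in each and, with the term, 1 dendritic cell marker higher and 1 neutrophil marker lower. Of the 7 macrophage markers 2 were lower in the cells labelled KO (median -0.03), and 4 were called with the term, 1 of them higher, while of the 8 markers of large peritoneal macrophages 1 was higher (median 0.07), and 4 were called with the term, 2 of them higher. In replicate 1 the mast cell sum of linear intensities was 11490 in WT and 9969 in KO untreated. At 1 h it was 10350 and 10914, and at 24 h 3246 and 3871. In replicate 2 the sums were 8225 and 14940 untreated, 10447 and 14185 at 1 h, and 1912 and 3949 at 24 h. At 4 h, WT and the cells labelled KO gave 13035 and 11199 in replicate 1 and 10676 and 22943 in replicate 2. The sum was thus lower in the cells labelled KO in replicate 1 untreated and at 4 h, and higher on the other arrays. The part of these cells in the Tnfsf10 difference was not tested.

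**Figure D3:**
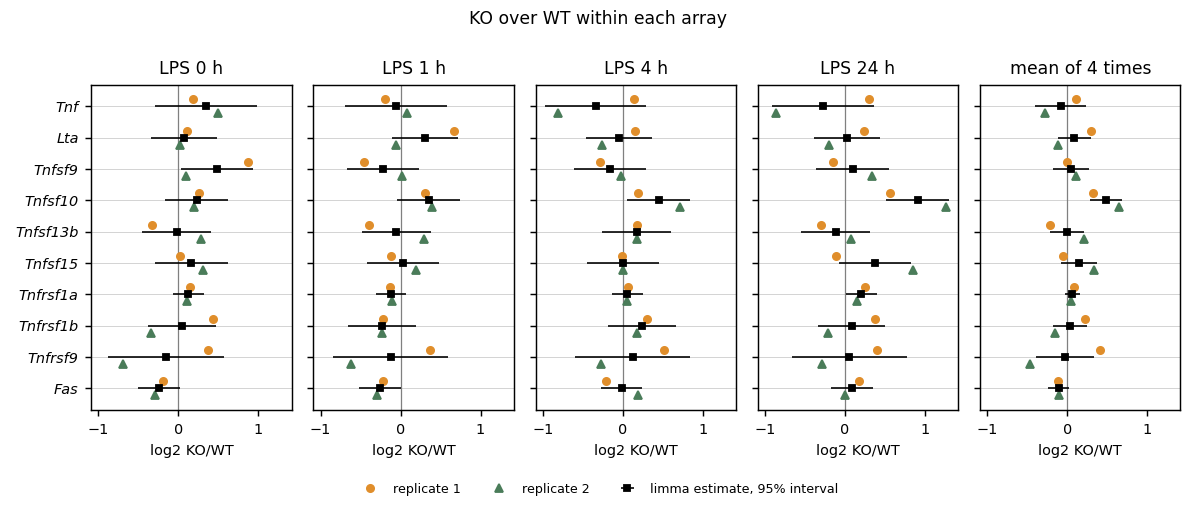
Log2 KO/WT of the 10 genes (rows) at each LPS time and on the mean of the 4 times (panels), with orange circles for the array of replicate 1, green triangles for that of replicate 2 and black squares with 95% intervals for the limma estimate. Tnfsf10 lay to the right of 0 on every array, and of the other genes only the intervals of Tnfsf9 untreated and Tnfrsf1a at 24 h left out 0.

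The LPS response itself was compared between the genotypes as the change in KO/WT from untreated cells. None of the 10 genes passed at 1, 4 or 24 h in limma, where 0%, 0% and 0% of all features passed, and 1 of the 10 had an unadjusted p below 0.05 at each time, against 516, 1073 and 1230 of 36947 features. With a replicate term 0 of the 10 passed at each time, against 0, 13 and 78 of all features. The gene with the unadjusted p below 0.05 was Tnfsf9 at 1 h and at 4 h, with a response difference of -0.70 (95% interval -1.35 to -0.06) and -0.64 (-1.28 to -0.00), and Tnfsf10 at 24 h, with 0.68 (0.13 to 1.24). The Tnfsf9 response difference at 1 h was -1.33 and -0.08 in replicates 1 and 2, close to 0 in replicate 2. At 4 h it also came mostly from replicate 1. The Tnfsf10 response difference at 24 h was 0.33 without 24 h replicate 2 and 1.03 without 24 h replicate 1. The 3 response comparisons share the untreated arrays.

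The rest of the family on the array had genes called in both directions, at 1 and 24 h in WT in a share near that of all features. Of 36 other ligands and receptors, 35 could be tested, Tnfsf13 having no probe that was matched. In WT, 3 were higher and 1 lower at 1 h, 10 higher and 8 lower at 4 h, and 7 higher and 4 lower at 24 h, with median changes of 0.06, 0.05 and -0.03, where 8.5%, 34.7% and 30.4% of all features were called. The counts in the cells labelled KO were 3 and 1, 10 and 9, and 5 and 3, against 7.53%, 36% and 28.6% of all features. With a replicate term 9 of the 35 were called at 1 h and 14 at 24 h in KO, against 4386 and 12364 of all 36927 features. Cd40, the receptor through which T cells activate macrophages, rose by 4.11 at 4 h in WT (SE 0.10, adjusted p = 5.31e-12) and by 4.19 in the cells labelled KO. Cd70, the ligand of CD27, rose by 2.92 and 3.13 at 4 h and was -0.03 from untreated at 24 h in WT. Tnfrsf19, a receptor well above background in 12 of 16 channels, rose by 2.45 and 2.01 at 4 h, and Ltb, the lymphotoxin beta subunit, was lower at 24 h (-2.19 and -2.10). Of the lymphocyte markers, 2 of 8 for B cells and 4 of 10 for T and NK cells were lower at 24 h in WT, and their part in the Ltb difference was not tested. Between KO and WT, 0 of the 35 were called at any time or on the mean, with 1, 7, 1, 5 and 7 at an unadjusted p below 0.05, against 2126, 2018, 1594, 1263 and 3935 of 36947 features. With the replicate term, 8 were called on the mean, 7 of them higher in the cells labelled KO, 1 untreated and 2 at 1 h, against 2219, 393 and 213 of all features.

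The genes that signal behind the receptors mostly rose at 4 h. Of 40 adaptors, kinases, ubiquitin ligases, NF-kB subunits, death effectors and shedding factors, all tested, 15 were higher and 3 lower in WT at 1 h, 27 higher and 9 lower at 4 h, and 18 higher and 11 lower at 24 h, with median changes of 0.14, 0.75 and 0.22. Of all features 8.5%, 34.7% and 30.4% were called. Those in the cells labelled KO were 16 and 1, 27 and 9, and 17 and 8, against 7.53%, 36% and 28.6% of all features. Traf1, an adaptor of TNFR2, rose by 4.35 at 4 h in WT (SE 0.17, adjusted p = 1.98e-10) and 4.44 in the cells labelled KO. Tnfaip3, the gene of A20, which restrains NF-kB, had risen by 4.01 at 1 h and stood at 4.08 at 4 h in WT. Cflar, the inhibitor of caspase 8 in death receptor complexes, rose by 2.97 at 1 h and 3.64 at 4 h, and Mlkl, the executioner of necroptosis, was 0.04 from untreated at 1 h and rose by 3.24 at 4 h and 3.04 at 24 h. Adam17, the protease that sheds TNF, was 0.08 and -0.11 from untreated at 1 and 4 h, short of the threshold, and lower at 24 h (-0.57 in WT and -0.48 in KO). Its mean KO/WT was -0.16 (adjusted p = 0.415). None of the 40 was called between KO and WT at a time or on the mean (5, 0, 1, 0 and 4 at an unadjusted p below 0.05, the threshold that 2126, 2018, 1594, 1263 and 3935 of 36947 features passed), and 3 were called on the mean with the replicate term, against 6.01% of all features.

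**Figure D4:**
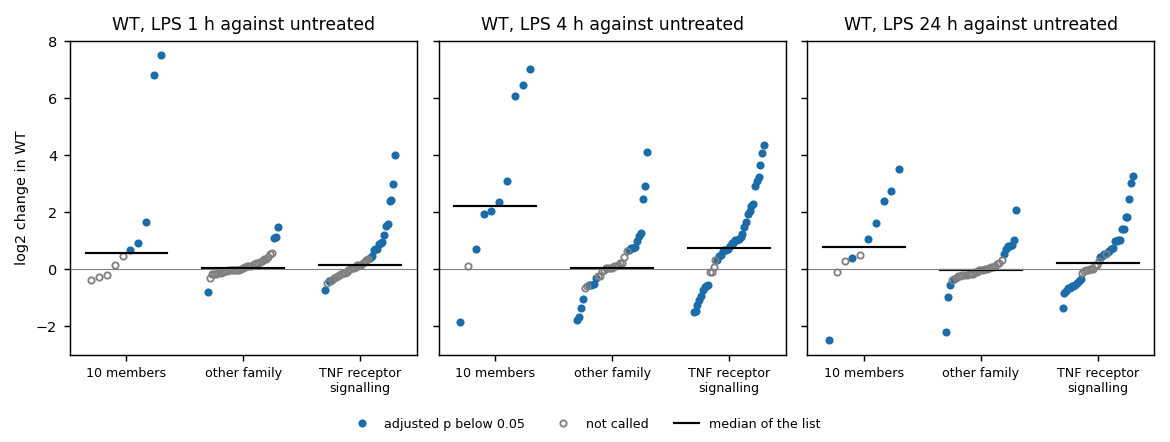
Log2 change after LPS in WT cells (vertical axis) of the 10 genes, the 35 other family members tested and the 40 TNF receptor signalling genes, at 1, 4 and 24 h (panels). Each point is a gene, filled where the adjusted p was below 0.05, and bars mark the list medians, which at 4 h were 2.20, 0.05 and 0.75.

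Patterns like those of the leading ligands were looked for among 13502 named genes that were well above background, by Pearson correlation over the 16 channels, which share 8 arrays and 4 times. Most like Tnf were Slfn2 (0.99), Ifnb1 (0.99) and Maff (0.99), among them the interferon beta gene Ifnb1. Most like Tnfsf10 were Iigp1 (0.99), Nmi (0.99) and Nlrc5 (0.99), of which Iigp1 and Nmi are known interferon-induced genes and Nlrc5 drives MHC class I genes. Most like Tnfsf15 were Oog2 (0.99), Tra2a (0.99) and Ripk2 (0.99), of which Ripk2 is the kinase of the NOD receptors. These coefficients are descriptions of 4 time points and rank many genes closely.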

How the data were processed

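Per the labels and the study's methods, RNA of WT and KO macrophages at 4 times was hybridised in 2 replicates to 8 2-colour Agilent mouse arrays, all on 1 slide, with the dyes swapped between replicates. The authors deposited scanner files of Agilent Feature Extraction 10.7.3, named in the submitters' processing notes with limma. The intensities the authors deposited are the raw median of each spot and dye, the scanner software's background-subtracted and dye-normalized signal, and flags. The authors also deposited a table of log2 ratios, which correlated with the loess-normalized log2 Cy5/Cy3 computed here at r = 0.99996 or above on every array, so its scale and direction are settled. Columns named for no sample numbered 0.

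Median intensities were background corrected with normexp (offset 50), normalized by loess within and by quantile between arrays, averaged per probe without outlier spots, and reduced to the brightest probe per gene. Genes whose log2 intensity averaged 6 or more were kept, 36947 for ratios and 36927 for channels. With R 4.3.3 and limma 3.58.1, KO/WT was fitted on the ratios within arrays (4 residual degrees of freedom) and LPS effects on separate channels (within-spot correlation 0.116, from 5000 genes). P-values were adjusted over all genes tested (Benjamini-Hochberg) and called below 0.05. The methods state quantile normalization and a t-test gene by gene. Scripts were tested on simulated data. The number of arrays limits the precision, and p-values measure the spread between these replicates.

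The replicate numbers paired the arrays: deviations of same-numbered arrays from their time means correlated at 0.475 to 0.679 for KO/WT in all 6 pairs of times, at 0.339 to 0.565 for WT and at 0.214 to 0.336 for KO intensities. The replicate number is also the dye orientation. A fit with a replicate term, other normalizations, signals, filters and probes, and leaving out each array were the alternatives. Groups and times were taken from the sample titles. The labels' culture text gives 4 h of LPS for all samples. The members and gene lists were chosen with earlier results of these data known. The genes named from the lists were those with the largest WT change past the threshold and well above background, up to 4 a list, and Adam17.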

Additional observations from a re-analysis of the deposited data

How the results depend on the processing

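Of 282 counts of called genes, 277 stayed within 1.5 times of the reported count. The 5 others were 3 in place of 5 genes called in WT at 1 h without untreated replicate 1 and without 1 h replicate 2, 1 in place of 0 for KO/WT at 24 h and for the KO/WT mean with the replicate term, and 1 for the KO/WT mean without 24 h replicate 1, each time Tnfsf10. With each array left out in turn, the count in WT at 1 h ranged from 3 to 5 and that of the KO/WT mean from 0 to 1. For single genes, the 82 results called with or without the replicate term were recomputed, and none reversed. Among the values so recomputed, 1187 kept their side of the threshold, 39 lost it and 7 gained it. The replicate term accounted for 5 of the 7 gained, those of Tnfsf10, of Tnfrsf9 at 1 h in both genotypes and of Tnfsf15 at 24 h in WT, and changed no other call. Other KO/WT and response results were recomputed and compared as counts of calls, not gene by gene, except for Tnfsf10, whose response at 4 h, 0.22 and not called, was -0.04 without 4 h replicate 2. Aquantile scaling, no background correction, no filter and the mean of all probes changed no call of these genes. The deposited ratios and the methods' t-test were run on KO/WT alone, and the deposited ratios on the responses too, and called none of the 10 genes, while the t-test called 0 of all features at each time. Loess alone lost 8, namely Tnfrsf1b in WT at 1 h (adjusted p = 0.127), from 1 to 4 h Fas (0.0794) and Tnfrsf1a (0.0519) in WT and Lta in the cells labelled KO (0.285), from 4 to 24 h Tnfrsf1b (0.0527) and Tnfsf13b (0.144) in WT and Tnfsf10 in the cells labelled KO (0.0584), and Tnfrsf1a in KO at 1 h (0.0534). Processed signals lost Fas in WT at 24 h (0.0728) and Tnfrsf1a in KO at 1 h (0.0533). They also moved called LPS changes of Lta, Tnfsf10, Tnfsf13b and Tnfsf15 by more than 1.5 times, as the mean of all probes did for Tnfrsf9. The cause was not tested. Loess alone moved the median of all genes from 1 to 4 h to -0.16 in both genotypes, and processed signals moved it to -0.14, -0.15 and -0.18 in WT at 1, 4 and 24 h. Brightness limits Tnfsf13b at 24 h, where it was not well above background in replicate 1. Untreated Tnfsf15, Tnfsf10 and Lta lay at 6.71 to 7.24, not far above the filter of 6, though well above background in all channels. Whether this lowered their folds was not tested.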
